A study of Mus musculus with 12 samples.

Results

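Hearts of female mice that had eaten a Western diet and then gone through pregnancy were compared with hearts of females that had neither exposure. The members were chosen by their labels: the 3 libraries titled WD-PP (Western diet postpartum) and the 3 titled CD-AM (control diet nonpregnant), which are 6 of the 12 libraries of the series. All mice were wild-type C57BL/6J females aged 27 to 29 weeks, and all ate their diet for 15 weeks before breeding. The control diet (Research Diets D12450K) held 10% of its energy as fat. The Western diet (D12451) held 45% as fat and 17% as sucrose. Postpartum hearts were taken on day 1 after delivery, and nonpregnant females were not bred. The other 6 libraries, Western diet nonpregnant and control diet postpartum, 3 of each, gave the change with diet alone and the change with pregnancy alone, both against the same control diet nonpregnant libraries. Adding these single changes on the log2 scale gave the sum that was set beside the joint change. The series asks whether diet-induced metabolic syndrome, a state of obesity with disturbed glucose and lipid handling, is followed by harmful remodelling of the pregnant heart.

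The adult heart makes most of its ATP by oxidising fatty acids, and the nuclear receptor PPAR alpha, activated by fatty acids, raises transcription of the enzymes that take them up and burn them. Pregnancy enlarges the heart in a reversible way, with changes in matrix, vessels and fuel use that regress after delivery. When amino acids run short or mitochondria are disturbed, the factor ATF4 raises genes of serine, glycine and one-carbon metabolism, a programme known as the integrated stress response.

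Total counts per library ran from 22754591 to 29492416 over the series, and levels are given as CPM, read counts scaled to a common library size. The labels do not say that the libraries of a group came from separate animals, so the p-values speak only to the spread among these libraries. All postpartum title numbers (670 to 682) come before all nonpregnant ones (685 to 694), so pregnancy and whatever follows that numbering cannot be told apart. The labelled tissue held its defining genes: the 15 cardiomyocyte markers together stood at 106437 to 117508 CPM in control diet nonpregnant and 99982 to 104752 CPM in Western diet postpartum libraries. Every Western diet postpartum sum thus lay below every control one. Of the libraries compared, control diet nonpregnant replicate 1 (chi-square per degree of freedom 16.7 and 16.3 against its replicates, which differed by 4.02) and Western diet postpartum replicate 2 (14.1 and 12.9, against 7.03) stood apart from their groups. Outside them, control diet postpartum replicate 3 carried fat genes, with Ucp1 of brown fat at 73.0 CPM against at most 0.544 in the other 11. That library enters the change with pregnancy alone and the sum, not the joint change.

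In Western diet postpartum hearts 18 of 45 genes of fatty acid oxidation and 5 of 34 antioxidant genes were higher than in controls. So were 7 of 36 genes of the unfolded protein and integrated stress response. Of 23 clock genes 6 were lower and 1 was higher, and 2 of 27 sarcomere and calcium genes were lower. Of 15476 genes tested, 406 (2.62%) passed an adjusted p of 0.05 in edgeR's quasi-likelihood test. These were 224 higher (1.45%) and 182 lower (1.18%) in Western diet postpartum hearts, 65 of them by at least 2-fold. Against the same controls, 9 genes passed with diet alone (0.0582%) and 37 with pregnancy alone (0.239%). Of the 406 genes, 386 passed in neither single comparison, while 8 of the 9 diet calls and 12 of the 37 pregnancy calls were among them. CPM did not overlap between the groups in 402 of the 406, where 20.2% of all genes tested did not overlap. The count was 764 without Western diet postpartum replicate 2, 87 without replicate 1 and 101 without replicate 3 of that group, 89 and 146 when replicate 2 or 3 of the control diet nonpregnant group was dropped, and 136 when only the 6 libraries were fitted. The single comparisons moved as well. Leaving out 1 library gave 0 to 18 calls with diet alone and 0 to 205 with pregnancy alone. The 205 came without control diet nonpregnant replicate 1, and 1 gene, not among the 37, passed with pregnancy alone without control diet postpartum replicate 3, the library that carried fat genes.

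The 3 changes share the control diet nonpregnant libraries, so their values are set side by side and no likeness between them is scored. Signed to the direction of the joint change, the 406 genes had a median change of 0.49 (log2), with 0.18 for diet alone, 0.18 for pregnancy alone and 0.38 for the sum of the 2 in each gene. The 95% interval of the single change excluded 0 in the joint direction for 181 genes with diet, 179 with pregnancy, 85 with both and 131 with neither. The departure, joint change minus sum, was tested across all genes as the diet by pregnancy interaction with all 12 libraries. No gene passed in edgeR (0%; smallest adjusted p = 0.0987), 1390 had an unadjusted p under 0.05 (8.98%; 5.12% above the sum, 3.86% below it), DESeq2 called 43 and limma-voom 0. A gene's 95% interval reached, at the median, 0.25 to either side of the joint change and 0.36 to either side of the departure. Among the 406, whose choice by the joint change favours large joint values, the interval of the departure held 0 in 302, lay past the sum in 89 and short of it in 15. A departure that misses the threshold does not show that diet and pregnancy added up.

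**Figure D1:**
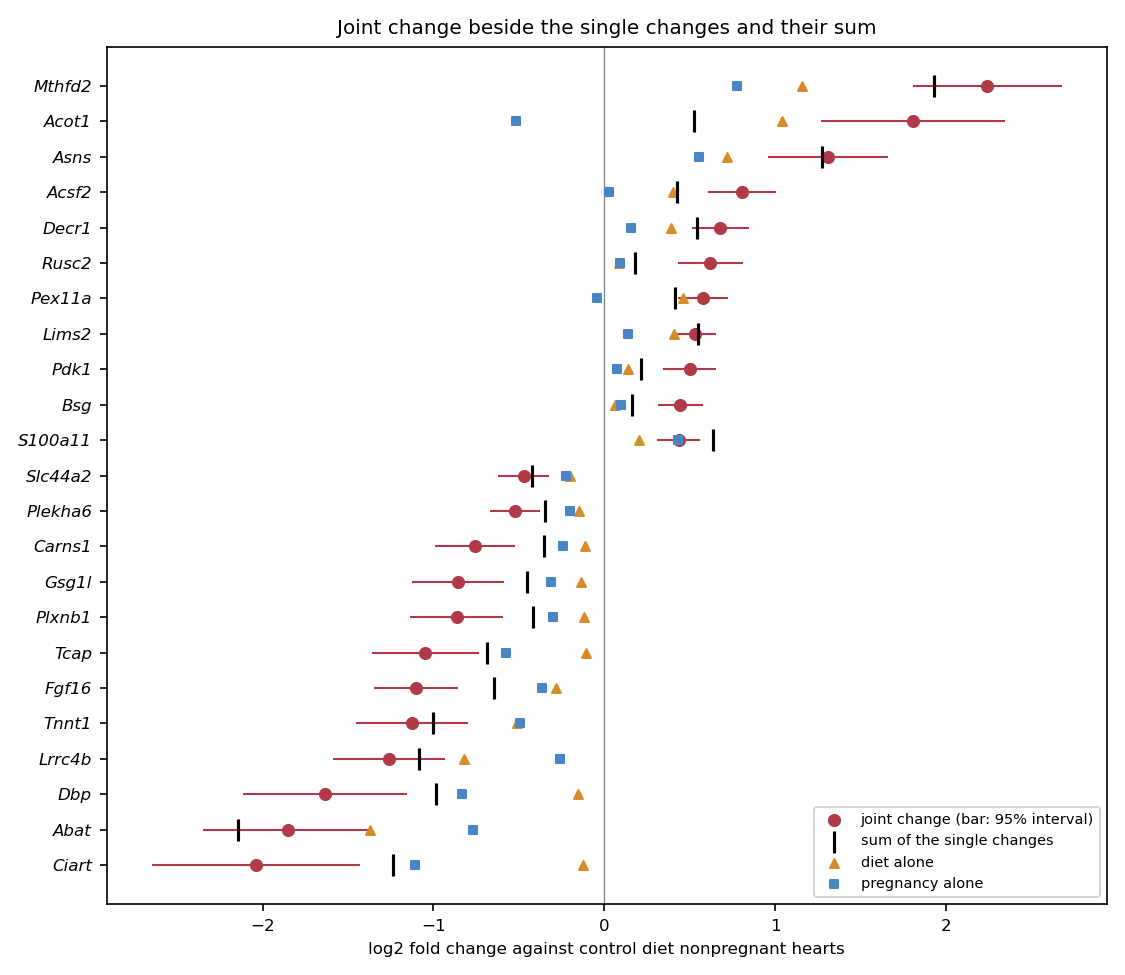
Joint change of 11 higher and 12 lower named genes (circles; bars, 95% interval), with the change with diet alone (triangles), with pregnancy alone (squares) and their sum (vertical ticks), as log2 fold change against control diet nonpregnant hearts on the horizontal axis. Mthfd2 lies farthest to the right at 2.24 and Ciart farthest to the left at -2.04; for Acot1 the single changes have opposite signs, 1.04 and -0.52.

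**Figure D2:**
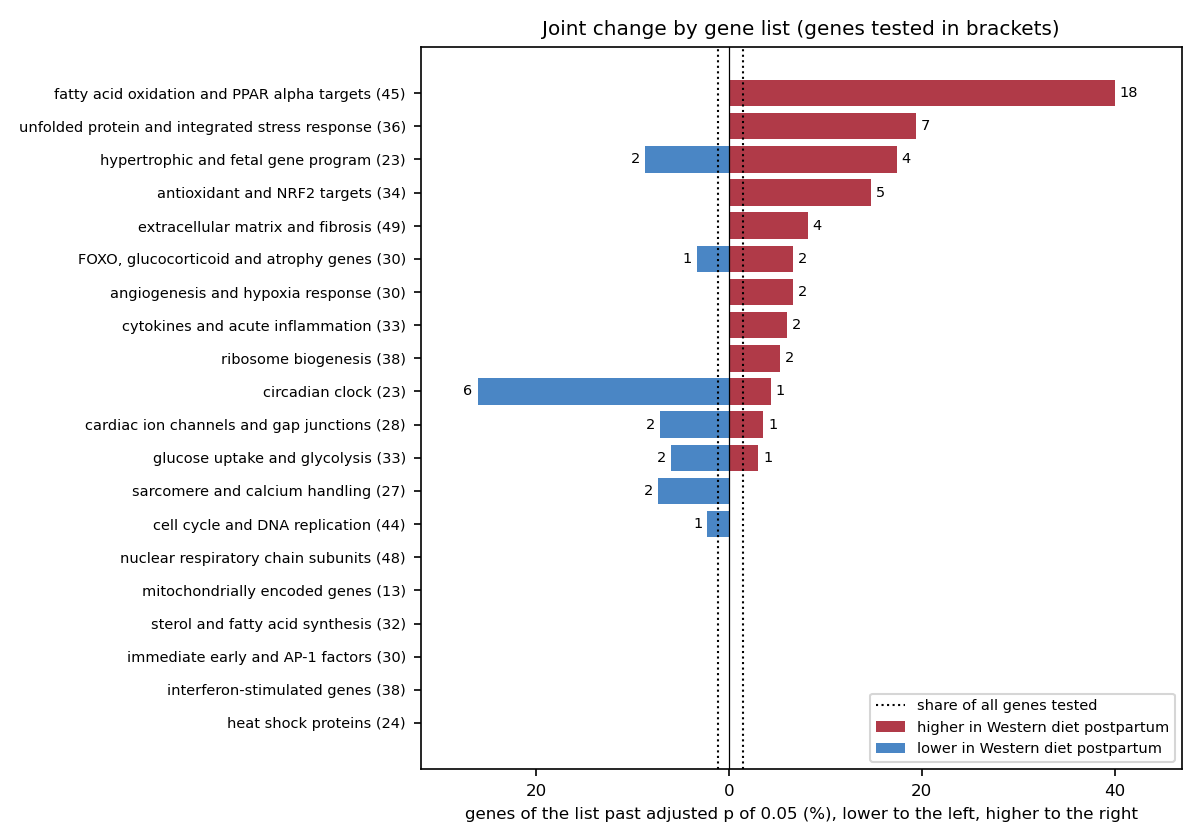
Share of each list's tested genes (%, horizontal axis) that passed an adjusted p of 0.05 in the joint change, higher to the right and lower to the left, with the number of genes at the bar's end and the genes tested in brackets. Dotted lines mark the shares over all genes tested, 1.45% higher and 1.18% lower; fatty acid oxidation had 18 higher of 45 and the clock 6 lower of 23.

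Of 45 tested genes of fatty acid oxidation and PPAR alpha targets, 18 rose, none fell and 27 did not pass, and 42 had a positive value; the list's median was 0.35 against -0.0015 over all genes. Acot1 (chr12:84009502-84017670, GRCm38), which splits acyl-CoA in the cytosol, was at 10.2, 14.8 and 16.6 CPM in controls and 43.3, 31.0 and 70.3 in Western diet postpartum hearts, with no overlap. It rose by 1.81 (SE 0.25, edgeR adjusted p = 0.00439). Diet alone gave 1.04 and pregnancy alone -0.52, so the sum was 0.52 and the joint change exceeded it by 1.29 (unadjusted p = 0.00289, adjusted p = 0.377 in edgeR). Its near-identical neighbour Acot2, a mitochondrial thioesterase, rose by 1.04, and reads shared between these paralogs leave both values uncertain. Pnpla2, the lipase that opens triglyceride stores, stood at 297, 331 and 375 CPM in controls and 541, 407 and 628 in Western diet postpartum hearts. Its joint change was 0.65 while its single changes were 0.07 with diet and -0.24 with pregnancy, a departure of 0.82.

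Pdk4 (chr6:5483351-5496309), a kinase that shuts off pyruvate oxidation, was at 284, 162 and 202 CPM in controls and 480.5, 2083 and 1048 in Western diet postpartum hearts. These groups did not overlap, but the Western diet postpartum libraries spread widely, with replicate 2 highest and replicate 1 lowest. The rise of 2.48 (SE 0.43, edgeR adjusted p = 0.0114) lost its call without control diet nonpregnant replicate 2 or 3 and with edgeR's robust option. Over all alternatives it stayed between 1.82 and 2.86 with adjusted p up to 0.067. Angptl4, a secreted inhibitor of lipoprotein lipase, rose by 2.59 (SE 0.53, edgeR adjusted p = 0.0244), with 6.78, 2.56 and 2.45 CPM in controls and 7.92, 39.9 and 24.9 after both exposures. Its call was lost without Western diet postpartum replicate 3, without control diet nonpregnant replicate 2 or 3 and under 3 other settings, at adjusted p up to 0.105.

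Steps of mitochondrial beta-oxidation moved by smaller amounts. Decr1, which prepares polyunsaturated fatty acids for oxidation, went from 327, 354 and 385 CPM to 577, 520.2 and 608, without overlap (log2 fold change 0.68, SE 0.08, edgeR adjusted p = 0.0017). Its sum was 0.54, with 0.39 for diet and 0.15 for pregnancy alone. The acyl-CoA dehydrogenases Acadl and Acadvl rose by 0.45 each, the trifunctional protein subunits Hadha and Hadhb by 0.40 and 0.41, the thiolase Acaa2 by 0.47, and the isomerases Eci1, Eci2 and Ech1 by 0.47, 0.42 and 0.52. Pex11a, which helps peroxisomes divide, rose from 17.7 ± 0.55 to 26.3 ± 1.01 CPM (SD, n = 3). Its joint change of 0.58 lay beside a sum of 0.41, with -0.05 for pregnancy alone. With diet alone it changed by 0.46 and passed there too (edgeR adjusted p = 0.0424). Acsf2, an acyl-CoA synthetase outside the list, rose by 0.80 with diet alone at 0.40 and pregnancy alone at 0.02. Dbi, an acyl-CoA carrier, and the carrier Ucp2 rose by 0.48 and 0.44. Of the entry steps, Cd36, a fatty acid transporter, stood at 0.30 and Cpt1b, the muscle carnitine palmitoyltransferase, at 0.18, and neither passed. The gene of the receptor itself, Ppara, stood at -0.47 and did not pass either (edgeR adjusted p = 0.0502). For Cpt1b, reads shared with the overlapping gene Chkb on the same strand leave the value uncertain.

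Over the 45 genes the median was 0.19 with diet alone, -0.06 with pregnancy alone, 0.16 for the sum and 0.21 for the departure. The departure was positive in 43 genes and had an unadjusted p under 0.05 above the sum in 7, where 5.12% of all genes did, and below it in none. Of the 45 genes, 7 rose without control diet nonpregnant replicate 2, 8 and 11 without Western diet postpartum replicates 3 and 1, 9 in the fit of 6 libraries, and 26 without Western diet postpartum replicate 2.

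**Figure D3:**
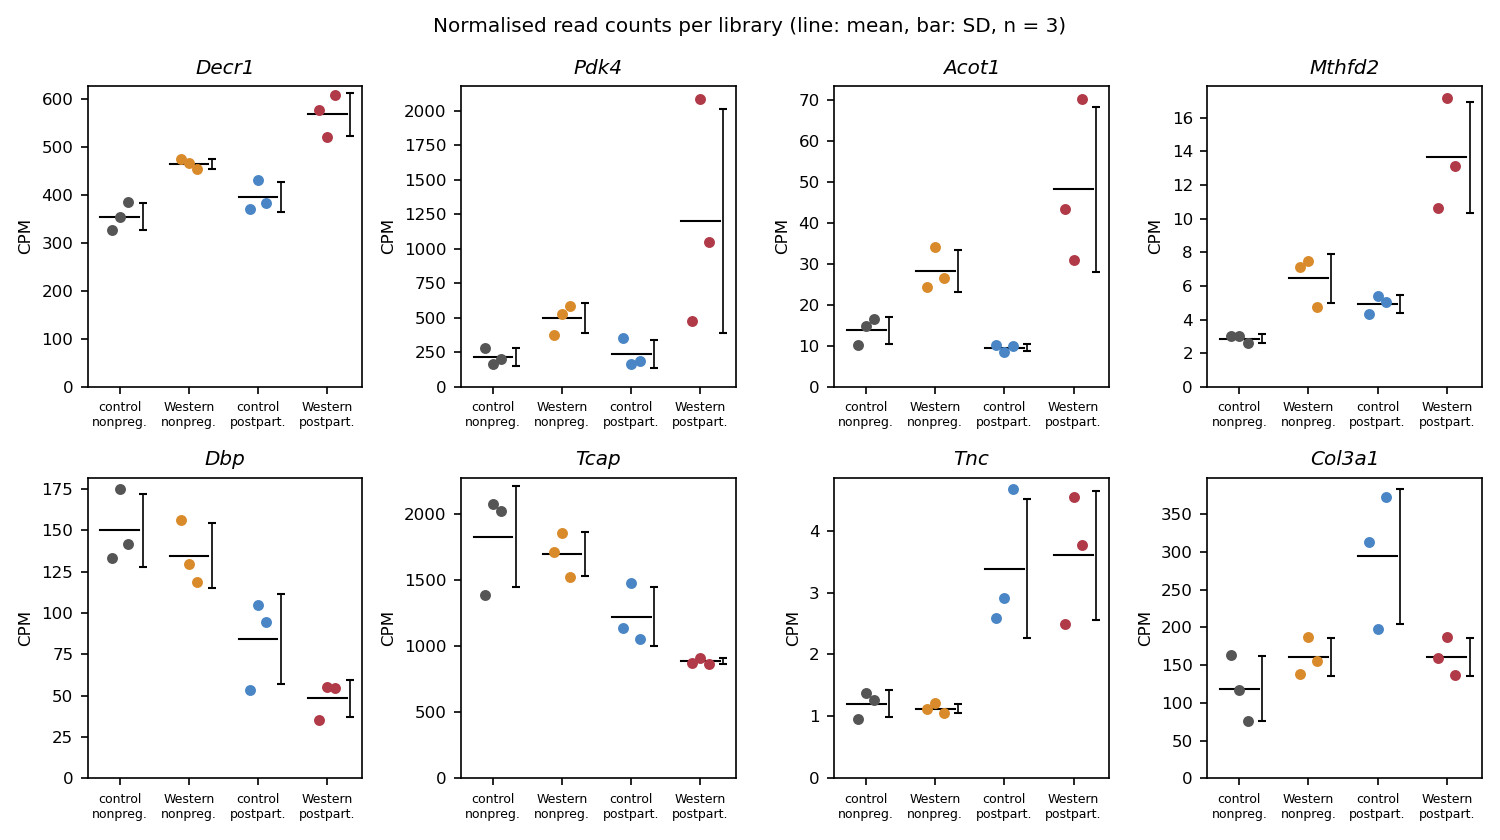
CPM of 8 genes in each of the 12 libraries (points; linear vertical axes), with the mean (line) and SD (bar, n = 3) of each group. Decr1, Mthfd2 and Acot1 have their highest mean in Western diet postpartum libraries, Dbp and Tcap lowest there, Tnc is high in both postpartum groups, and Col3a1 is high in control diet postpartum libraries (197 to 372 CPM) but not in Western diet postpartum ones (137 to 187 CPM).

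Genes of glucose use showed no shared direction. Of 33 tested, 1 rose and 2 fell (9.09%, where 2.62% of all genes passed), and 17 values were positive and 16 negative (median 0.0046). Slc2a4, the insulin-regulated glucose transporter GLUT4, was at 445, 514 and 498 CPM in controls and 327, 406 and 340.1 after both exposures. Without overlap, it fell by 0.44 on the log2 scale (SE 0.08, edgeR adjusted p = 0.0150), close to its sum of -0.46 with a departure of 0.02 (95% interval -0.23 to 0.26). Hk2, a hexokinase, fell by 0.30 against a sum of -0.34. Pdk1, like Pdk4 a pyruvate dehydrogenase kinase, rose from 198, 189 and 195 to 277, 253 and 292 CPM (log2 fold change 0.50, SE 0.07, edgeR adjusted p = 0.00532). The sum for Pdk1 was 0.21. The calls of Slc2a4 and Hk2 were lost without Western diet postpartum replicate 1 or 3, without control diet nonpregnant replicate 2 or 3 and in the fit of 6 libraries, at adjusted p up to 0.0754 and 0.103.

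Of 36 tested genes of the unfolded protein and integrated stress response, 7 rose and none fell, with 20 positive and 16 negative values and a median of 0.15. The 7 are Mthfd2, Asns, Phgdh, Psat1, Slc7a5, Atf5 and Eif4ebp1. Mthfd2 (chr6:83305691-83325908), a mitochondrial enzyme of one-carbon metabolism, was at 2.997, 3.02 and 2.58 CPM in controls and 10.6, 17.2 and 13.1 in Western diet postpartum hearts, without overlap (log2 fold change 2.24, SE 0.20, edgeR adjusted p = 0.000232). Western diet nonpregnant libraries held 7.12, 7.46 and 4.75 CPM and control diet postpartum libraries 4.32, 5.42 and 5.03, between the other groups. The sum was 1.93 and the departure 0.31 (95% interval -0.29 to 0.91).

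Asns, which makes asparagine, rose from 2.498, 2.27 and 2.27 to 5.71, 6.12 and 5.65 CPM (log2 fold change 1.31, SE 0.16, edgeR adjusted p = 0.00251). With 0.72 for diet and 0.55 for pregnancy, its sum of 1.27 lay within 0.04 of the joint change, and the 95% interval of the departure ran from -0.46 to 0.53. The serine synthesis enzymes Phgdh and Psat1 rose by 1.48 and 0.87, against sums of 1.44 and 0.64. The amino acid transporter Slc7a5 rose by 0.74 and the transcription factor Atf5 by 0.77. Eif4ebp1, a repressor of translation initiation, stood at 64.3, 59.6 and 53.3 CPM in controls and 81.7, 79.4 and 88.1 after both exposures, while its single changes were -0.01 and 0.03. Its joint change of 0.49 exceeded the sum of 0.02 by 0.47 (unadjusted p = 0.000748, adjusted p = 0.357 in edgeR). None of the endoplasmic reticulum chaperones on the list passed: Hspa5 stood at -0.37, Hsp90b1 at -0.18, Calr at -0.19 and Pdia4 at -0.24. Atf4 itself stood at 0.23 (adjusted p = 0.133).

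The promoter of Asns is shown because its gene rose and because it holds the core of the amino acid response element that ATF4 is known to bind. The letters TGATGNAA were searched on both strands in RefSeq promoters of GRCm38.p6, from 250 bases before to 50 after each gene's start, and 3.97% of 32851 promoters held a match. In the list, 7 of 31 genes with a promoter held one, and of the 5 called genes with a promoter only Asns did. A list gene counted if any of its starts matched, so genes with several starts had more chances than the single promoters of the 3.97%. Its match, in capitals, starts 23 bases before the transcription start in chr6:7693160-7693459 (minus strand).
Asns: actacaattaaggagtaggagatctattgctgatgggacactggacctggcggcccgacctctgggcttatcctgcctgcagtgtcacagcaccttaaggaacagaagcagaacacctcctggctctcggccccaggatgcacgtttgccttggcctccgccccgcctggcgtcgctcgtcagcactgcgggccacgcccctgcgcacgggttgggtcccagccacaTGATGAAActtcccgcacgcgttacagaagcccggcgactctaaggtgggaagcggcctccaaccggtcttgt

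Of 34 tested antioxidant genes and targets of NRF2, the factor that answers oxidative stress, 5 rose, none fell and 29 did not pass, with a median of 0.19 and 28 positive values. Hmox1, which degrades heme, was at 10.1, 9.28 and 8.53 CPM in controls and 12.3, 18.5 and 17.6 in Western diet postpartum hearts (log2 fold change 0.79, SE 0.16, edgeR adjusted p = 0.0244). Gclm, a subunit of the enzyme that starts glutathione synthesis, was at 23.4, 24.5 and 20.5 CPM against 30.8, 31.5 and 45.2, and Srxn1, which repairs oxidised peroxiredoxins, at 18.1, 20.2 and 19.8 against 30.04, 23.1 and 42.3. None of these 3 genes overlapped between the groups. Their single changes lay between -0.17 and 0.22, and the joint changes exceeded the sums by 0.57 (Hmox1), 0.80 (Gclm) and 0.61 (Srxn1). None of these departures passed (adjusted p = 0.500, 0.377 and 0.460 in edgeR), and the genes were chosen by their joint change. The malic enzyme Me1, a source of NADPH, rose by 0.38 and the iron store Fth1 by 0.27, while Nqo1 stood at 0.05 and Gclc at 0.06. No gene of this list passed when replicate 3 of Western diet postpartum or replicate 2 of control diet nonpregnant was left out, and 1 rose without Western diet postpartum replicate 1 and in the fit of 6 libraries. Without control diet nonpregnant replicate 1, Hmox1 rose and Gstm2, a glutathione transferase, fell. Leaving out control diet postpartum replicate 2, or Western diet nonpregnant replicate 2 or 3, left Hmox1, Me1 and Srxn1 risen. Without control diet nonpregnant replicate 3, Hmox1, Gclm and Srxn1 did not pass. Fth1, Me1 and Sod1, another gene of the list, rose there. The value of Srxn1 was 0.46 without Western diet postpartum replicate 3.

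The Me1 promoter is shown as the clearest case of a called gene with the core of the antioxidant response element, TGACNNNGC, close to its start. Searched in the same way, this core was in 12.4% of all promoters. It was in 11 of 29 genes of the list and in 3 of the 4 called genes with a promoter (Gclm, Me1 and Srxn1). Here too the first share counts promoters and the others genes with a match at any start. The match in capitals starts 6 bases before the transcription start in chr9:86695865-86696164 (minus strand), 1 of 2 Me1 starts in the RefSeq table, of which the other held no match.
Me1: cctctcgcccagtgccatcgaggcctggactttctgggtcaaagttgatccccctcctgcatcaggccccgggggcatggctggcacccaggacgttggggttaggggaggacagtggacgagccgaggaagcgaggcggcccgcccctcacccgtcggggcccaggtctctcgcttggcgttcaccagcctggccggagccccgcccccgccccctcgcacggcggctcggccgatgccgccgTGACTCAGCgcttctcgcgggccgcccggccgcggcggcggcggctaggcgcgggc

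Among the 36 fatty acid genes with a promoter, none held the DR1 element, the direct repeat that PPAR receptors bind, which 0.38% of all promoters did, both strands searched. This says only that these letters are not in these windows.

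Of 23 clock genes 6 fell and 1 rose. The list moved both ways, with 9 positive and 14 negative values, so its median of -0.31 does not describe all its members. The sample labels used here give no time of day at collection, and its part in these values was not tested. Dbp, a transcription factor that carries clock output, was at 133, 175 and 142 CPM in controls and 35.1, 55.3 and 54.4 in Western diet postpartum hearts. It fell by 1.64 on the log2 scale (SE 0.22, edgeR adjusted p = 0.00439) without overlap. Control diet postpartum libraries held 53.6, 105 and 94.7 CPM and Western diet nonpregnant ones 156, 129 and 119. Single changes were thus -0.16 with diet and -0.83 with pregnancy, a sum of -0.99, and the departure of -0.65 had a 95% interval from -1.31 to 0.01. Dbp shares 539 exonic bases with Sphk2 on the opposite strand, and the strand setting of the counting is not given.

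Ciart (chr3:95878503-95882251), a repressor in the clock loop, went from 11.9, 24.3 and 15.8 to 4.37, 3.81 and 4.45 CPM (log2 fold change -2.04, SE 0.28, edgeR adjusted p = 0.00439). Bhlhe41, a repressor also known as DEC2, Hlf, a relative of Dbp, Nr1d2, which encodes REV-ERB beta, and the deubiquitinase Usp2 had joint changes of -0.67, -0.88, -0.49 and -0.46. Nfil3, a repressor that competes with Dbp for its sites, rose by 1.06, from 6.53, 8.15 and 8.98 to 17.4, 14.2 and 17.5 CPM. Arntl and Npas2, activators at the core of the loop, stood at 1.08 and 0.75 without passing (adjusted p = 0.149 and 0.174), Per3 at -0.72, and Nr1d1 at -0.92 (adjusted p = 0.0563). Over the list the median was -0.38 for the sum and 0.09 for the departure, which lay between 0.02 and 0.15 over the alternatives. Leaving out Western diet postpartum replicate 1, or replicate 2 of the nonpregnant controls, left 2 fallen genes and none risen.

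The promoters of Ciart and Bhlhe41 are shown because these are the called clock genes that hold the E-box CACGTG, the site of the CLOCK and BMAL1 activators, in the searched window. The E-box was in 7.15% of all promoters, in 5 of 19 genes of the list with a promoter and in 2 of the 7 called. Again the first share counts promoters and the others genes with a match at any start. Ciart holds 3, starting 116, 58 and 44 bases before its start (chr3:95882179-95882478, minus strand), and Bhlhe41 holds 1 at 153 bases (chr6:145865371-145865670, minus strand). Capitals mark the E-boxes.
Ciart: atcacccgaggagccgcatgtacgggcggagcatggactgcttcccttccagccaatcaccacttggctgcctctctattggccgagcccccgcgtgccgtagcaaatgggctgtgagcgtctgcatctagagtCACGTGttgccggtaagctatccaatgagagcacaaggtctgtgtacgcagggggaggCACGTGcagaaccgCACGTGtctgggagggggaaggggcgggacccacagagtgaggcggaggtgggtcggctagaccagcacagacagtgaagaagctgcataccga
Bhlhe41: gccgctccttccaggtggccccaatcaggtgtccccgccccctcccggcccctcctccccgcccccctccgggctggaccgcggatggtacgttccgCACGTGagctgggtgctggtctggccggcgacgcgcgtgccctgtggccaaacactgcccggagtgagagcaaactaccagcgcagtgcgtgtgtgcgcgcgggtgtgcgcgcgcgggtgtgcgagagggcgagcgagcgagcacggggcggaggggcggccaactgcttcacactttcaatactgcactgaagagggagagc

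Contractile and stress genes moved unequally. Tcap (chr11:98383811-98384953), the Z-disc protein telethonin, was at 1391, 2077 and 2026 CPM in controls and 877, 912 and 870.1 in Western diet postpartum hearts, without overlap (log2 fold change -1.05, SE 0.15, edgeR adjusted p = 0.00439). The sum was -0.68, mostly from pregnancy alone at -0.58. Tnnt1, the slow skeletal troponin T, went from 14.6 ± 1.36 to 6.67 ± 0.96 CPM (SD, n = 3), a change of -1.13 beside a sum of -1.002. Pln, which restrains the calcium pump of the sarcoplasmic reticulum, was the other of 27 sarcomere and calcium genes to fall (-0.27), and none rose. The calls made up 7.41% of that list, where 2.62% of all genes passed. The list's median was -0.11, with Myh6, the adult cardiac myosin, at -0.11.

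In the hypertrophic and fetal list 4 of 23 genes rose and 2 fell, with a median of 0.31. Tpm2, beta-tropomyosin, went from 15.0, 17.8 and 14.1 to 41.7, 28.5 and 37.5 CPM (log2 fold change 1.20, SE 0.20, edgeR adjusted p = 0.0110), and Rcan1, a target and inhibitor of calcineurin signalling, rose by 0.74. The sum for Tpm2 was 0.91, with 0.34 for diet and 0.57 for pregnancy alone, and that for Rcan1 was 0.62. Nppb, the natriuretic peptide BNP that marks wall stress, was at 147, 101 and 72.0 CPM in controls and 622, 130 and 405 in Western diet postpartum hearts. Those groups overlapped, through Western diet postpartum replicate 2. The change of Nppb, 1.85 (SE 0.44, edgeR adjusted p = 0.0431), passed in 9 of 21 alternatives, ranging from 1.32 to 2.26 with adjusted p up to 0.189. Nppa, the atrial peptide, stood at -0.55 and Acta1, skeletal actin, at 1.14, and neither passed. Des, the intermediate filament desmin, rose by 0.28, while the slow myosin Myh7 (-0.26) and the creatine kinase Ckb (-0.41) fell. Myh7 shares 463 exonic bases with Mhrt on the opposite strand. Ckb had single changes of -0.11 and 0.23, so its joint change lay 0.53 below the sum. Without Western diet postpartum replicate 1 none of the 23 passed, 1 passed when replicate 3, or replicate 2 of the nonpregnant controls, was dropped, and 2 passed without replicate 3 of those controls. Dropping control diet postpartum replicate 2, or Western diet nonpregnant replicate 2 or 3, left 3, and without Western diet postpartum replicate 2, 8 rose and 2 fell.

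Of 28 ion channel and gap junction genes 1 rose and 2 fell (10.7%, where 2.62% of all genes passed). In the list 22 had negative values (median -0.25). Gja1, the ventricular gap junction protein connexin 43, was at 420, 368 and 385 CPM in controls and 294, 249 and 280 after both exposures (log2 fold change -0.51, SE 0.11, edgeR adjusted p = 0.0297). Its value with diet alone was -0.43 and with pregnancy alone -0.05. Scn4b, a sodium channel beta subunit, was higher at 64.5, 80.3 and 81.2 CPM against 45.7, 48.7 and 53.6. Its joint change of 0.61 lay beside 0.86 with diet alone. Kcnj5, a subunit of the acetylcholine-gated potassium channel, fell by 0.45 on the log2 scale. The Gja1 call was lost without any 1 of the 6 libraries compared, at adjusted p up to 0.0861. Those of Scn4b and Kcnj5 were lost when, among others, replicate 3 of Western diet postpartum or replicate 2 of control diet nonpregnant was left out, at adjusted p up to 0.0749 and 0.182.

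Matrix genes mostly had joint changes below the sum of their single changes, though no departure passed over all genes in edgeR. Of 49 tested, 4 rose (8.16%, where 2.62% of all genes passed) and none fell. The 4 were Tnc, Thbs1, Eln and Sparc. The list's median was 0.24 beside 0.43 with pregnancy alone and 0.47 for the sum. Tnc, the matrix protein tenascin C made during tissue remodelling, was at 0.96, 1.39 and 1.27 CPM in controls and 2.49, 4.55 and 3.76 in Western diet postpartum hearts. It rose by 1.58 (SE 0.28, edgeR adjusted p = 0.0120), with -0.09 for diet and 1.501 for pregnancy alone. Thbs1, thrombospondin 1, rose by 1.53, from 5.602, 4.91 and 4.76 to 17.3, 15.7 and 11.2 CPM, and Eln, elastin, by 0.71. For these 3 genes the departures were 0.17, 0.36 and 0.04, with intervals that held 0. Sparc, which binds collagen in the matrix, rose by 0.43 beside a sum of 0.84, a departure of -0.42 (95% interval -0.73 to -0.100, unadjusted p = 0.0136, adjusted p = 0.460 in edgeR). Leaving out Western diet postpartum replicate 1, or replicate 2 or 3 of the nonpregnant controls, left 1 of the 49 risen, leaving out Western diet postpartum replicate 3 left 2, and dropping replicate 1 of the controls gave 9.

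Collagen chains had larger sums than joint changes. Col3a1 (chr1:45311538-45349706), the main chain of collagen III, was at 163, 118 and 76.1 CPM in control diet nonpregnant, 139, 188 and 156 in Western diet nonpregnant, 313, 197 and 372 in control diet postpartum and 159, 187 and 137 in Western diet postpartum libraries. Only the control diet postpartum libraries lay wholly above the others. The joint change of 0.44 (SE 0.25) did not pass, beside 1.30 with pregnancy alone and a sum of 1.74. The departure was -1.30 (95% interval -2.05 to -0.55, unadjusted p = 0.00233, adjusted p = 0.376 in edgeR). Col1a1, the main chain of collagen I, had a joint change of 0.31, a sum of 1.07 and a departure of -0.75. Serpinh1, the chaperone that folds collagen, stood at 192, 182 and 185 CPM in controls, 249, 262 and 269 in control diet postpartum and 221, 198 and 188 in Western diet postpartum hearts. Its departure of -0.56 had the smallest p of the named genes (unadjusted p = 3.03e-05, adjusted p = 0.234 in edgeR).

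The 14 collagen chains of the list, a subset chosen after their values were seen, all had negative departures, 8 with an unadjusted p under 0.05 where 3.86% of all genes did. None passed in the joint change in edgeR (1 in DESeq2, 10 with no filter on low counts), and 6 passed with pregnancy alone (8 and 13). None of the 14 passed with pregnancy alone without control diet postpartum replicate 1 or 3, Western diet nonpregnant replicate 2, or control diet nonpregnant replicate 2 or 3, or in the fit of only the groups compared, whereas 10 did, and 2 in the joint change, without control diet nonpregnant replicate 1. Their medians were 0.27 for the joint change, 0.20 for diet, 0.65 for pregnancy, 0.75 for the sum and -0.59 for the departure, which was -0.61 without control diet postpartum replicate 3. Over the whole matrix list 40 of 49 departures were negative, 15 with an unadjusted p under 0.05, and the median was -0.27 (-0.41 without that library and control diet nonpregnant replicate 1). Of 15 fibroblast markers, 5 of which are also on the matrix list (Col1a1, Col1a2, Col3a1, Dcn and Lum), 14 had negative departures, with a median of -0.43. Their summed level was 2068 to 2547 CPM in control diet nonpregnant, 2504 to 2812 in Western diet nonpregnant, 2670 to 2808 in control diet postpartum and 2505 to 2954 in Western diet postpartum libraries, and their part in the matrix values was not tested. In bulk tissue, fewer cells of a type and less RNA per cell cannot be told apart.

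**Figure D4:**
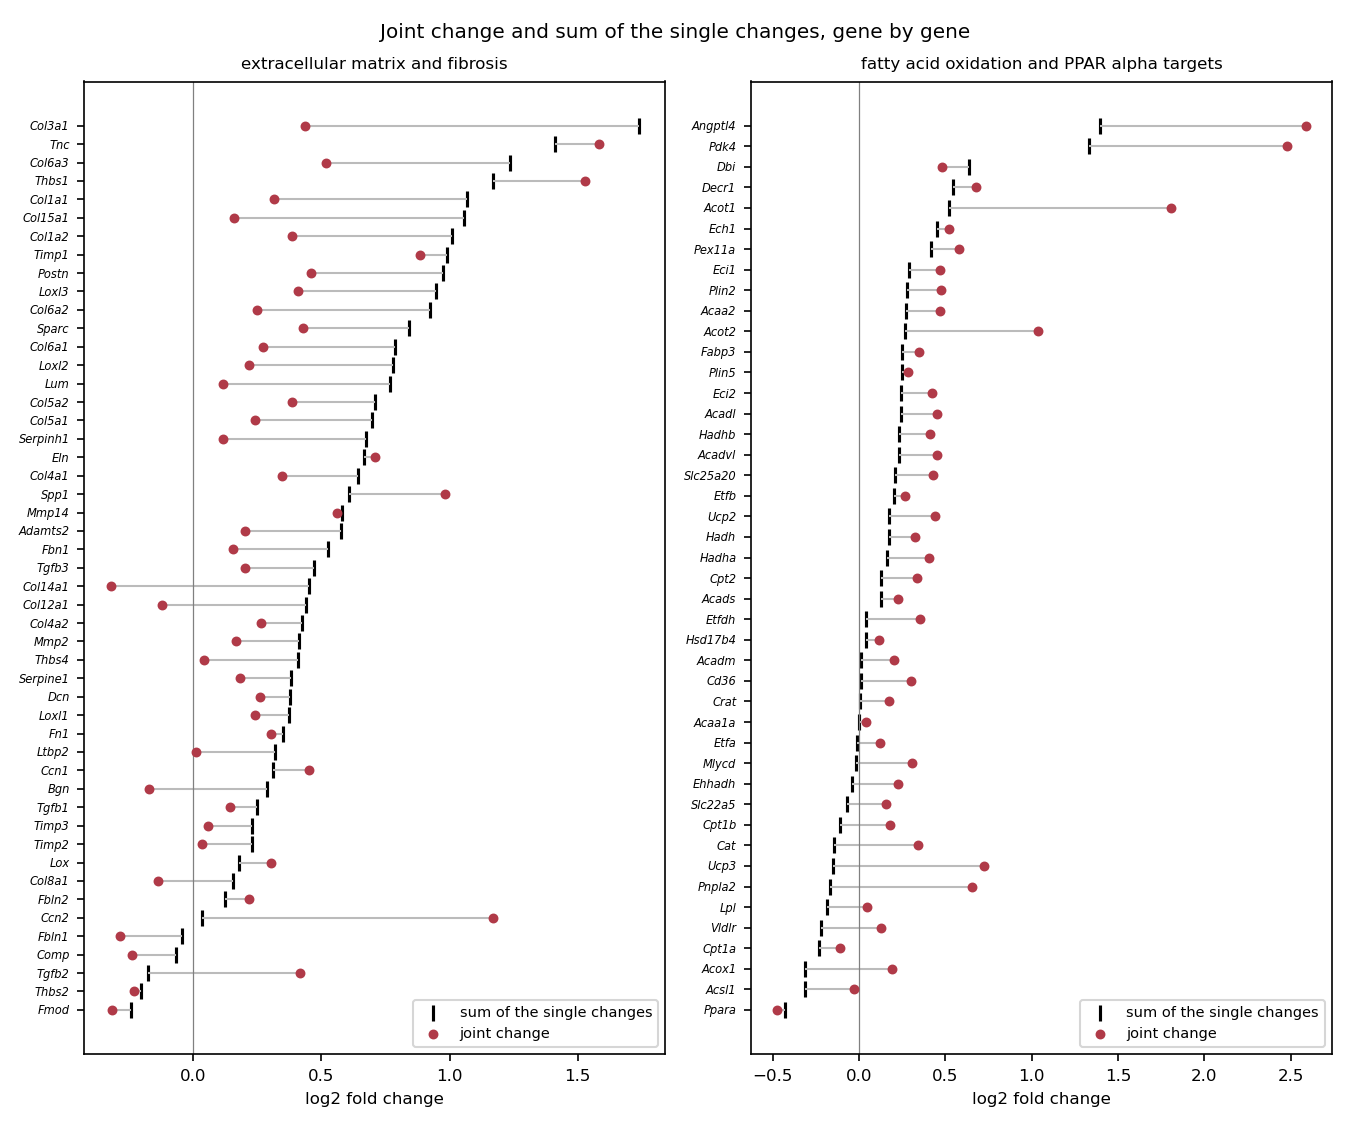
Joint change (circles) and sum of the single changes (ticks) for each gene of the matrix list (left) and the fatty acid oxidation list (right), as log2 fold change, ordered by the sum. In the matrix list 40 of 49 circles lie left of their tick, and 42 of the 44 drawn for the fatty acid list lie right of it.

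Beyond these lists, Fgf16 (chrX:105764279-105774939), a growth factor made by heart muscle, was at 22.4, 25.6 and 24.0 CPM in controls and 10.9, 11.9 and 10.8 in Western diet postpartum hearts. It fell by 1.10 on the log2 scale (SE 0.11, edgeR adjusted p = 0.000927), beside a sum of -0.65. Abat, which breaks down the transmitter GABA, went from 24.0, 23.1 and 23.2 to 9.67, 4.33 and 5.39 CPM. Its joint change of -1.85 lay beside -1.37 with diet, -0.77 with pregnancy and a sum of -2.14. The synaptic adhesion gene Lrrc4b (-1.26), the glutamate receptor subunit Gsg1l (-0.86), the semaphorin receptor Plxnb1 (-0.87), the choline transporter-like gene Slc44a2 (-0.47) and Plekha6 (-0.52) fell too. Carns1, which makes the muscle dipeptide carnosine, had a joint change of -0.76, and it shares 1328 exonic bases with Gm17552 on the opposite strand.

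Bsg, basigin, which escorts lactate transporters to the membrane, rose from 1206, 1253 and 1271 to 1714, 1677 and 1685 CPM. The replicates were tight, and the change of 0.44 (SE 0.06, edgeR adjusted p = 0.00439) lay above a sum of 0.16. S100a11, a calcium-binding protein, rose from 20.5, 20.4 and 19.8 to 27.4 CPM in each Western diet postpartum library, and control diet postpartum libraries stood at 27.2, 27.1 and 27.7. Lims2, an adaptor at integrin adhesions, had a joint change of 0.53 and a sum of 0.55, with 0.41 from diet alone; it overlaps Gpr17 on the opposite strand. Rusc2 rose by 0.62 against a sum of 0.18. The 23 genes named here by smallest p kept direction and call under all 21 alternatives, as did Atf5, Eif4ebp1, Tnc, Smtn and Cenpf. The other called genes that were named through a list each lost the call under at least 1 alternative, with the direction kept. All these genes were chosen by their p in these same libraries, so kept calls and directions are no independent support.

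Some markers of other cells passed too, where 2.62% of all genes did. Of 15 endothelial markers 2 rose (13.3%), Pecam1, the adhesion molecule of endothelium, by 0.34 and Fabp4, a fatty acid carrier of capillary endothelium and fat, by 0.46. The summed level of the 15 was 2164 to 2216 CPM in controls against 2377 to 2641 in Western diet postpartum libraries. Fabp4 alone held 464, 532 and 576 CPM of it in controls and 733, 748 and 676 in Western diet postpartum libraries. Without Fabp4 the summed levels of these groups overlapped. Of 20 macrophage markers 1 rose (5%), the complement subunit C1qb, by 0.38, and the summed level was 351 to 425 against 430 to 504 CPM. Of 11 white adipocyte markers 2 rose (18.2%), Fabp4 and Pparg (0.74), whose product PPAR gamma drives fat cell formation. Values of the 11 were positive in 6 and negative in 5. Their summed level was 928 to 1078 against 1193 to 1348 CPM, and without Fabp4 it overlapped between the groups here too. In the 6 libraries compared the fat genes Adipoq, Plin1, Ucp1 and Cfd reached at most 0.453, 0.531, 0.544 and 1.43 CPM. Cidea, a lipid droplet protein of fat on both adipocyte lists, reached 31.0 CPM there and 38.2 CPM in control diet postpartum replicate 3; its joint change of 0.43 did not pass. Of 15 smooth muscle and pericyte markers 2 passed (13.3%): Des rose and Smtn, smoothelin, fell by 0.49 on the log2 scale, with 202, 203 and 223 CPM in controls and 137, 164 and 146 after both exposures. Smtn had single changes of -0.002 and -0.02, and its departure was -0.46 (unadjusted p = 0.000533, adjusted p = 0.357 in edgeR). Pln was the 1 of 15 cardiomyocyte markers to pass, with a fall, while 13 of the 15 had negative values (median -0.15). Of 15 fibroblast markers Pdgfra rose by 0.28 at an adjusted p at the threshold. What these cell shares contribute to the gene lists was not tested.

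Of the genes named for their departure, Rreb1, Myh14 and Dusp18 lay above the sum and Serpinh1, Col16a1 and Smtn below it, and none passed over all genes in edgeR. Rreb1, a zinc finger factor of Ras signalling, stood at 51.5, 54.1 and 57.6 CPM in controls and 51.3, 52.1 and 57.6 in Western diet postpartum hearts. Diet alone gave -0.24 and pregnancy alone -0.32, whereas the joint change was -0.02, a departure of 0.54 (unadjusted p = 7.55e-05, adjusted p = 0.350 in edgeR). Myh14, a nonmuscle myosin, had a joint change of 0.20 against a sum of -0.46, and Dusp18, a phosphatase, 0.26 against -0.89. In the latter both single changes were negative and the joint change positive, at 68.7, 90.95 and 79.5 CPM in controls, 69.7 at most in any single-exposure library and 97.6, 69.5 and 119 after both. Col16a1, a minor collagen, stood 0.83 below its sum.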

How the data were processed

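RNA-seq libraries from hearts were analysed from the deposited files of 12 samples. The authors deposited raw counts of reads for each gene. The submitters' processing notes name FastQC, the aligner STAR 2.5.2b, the counter featureCounts (Subread 1.5.2) and GRCm38 (mm10). The strand setting is not given in the sources used here, nor is the annotation release. Per the series, the raw reads were lost. Groups came from the titles. The file headers call the Western diet HF-HC and the control diet Ctrl, and the genes of 1 file (Western diet postpartum replicate 1) stand in a different order, so counts were joined by gene identifier. Each file lists 49315 genes. The 345 without a symbol (at most 0.0248% of counts) stayed in the tests.

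The filter filterByExpr (a count of 10, a total of 15, by group) kept 15476 genes. All libraries were fitted in 1 edgeR 4.0.16 quasi-likelihood model with TMM scaling and 1 mean for each group (8 residual degrees of freedom, common biological coefficient of variation 9.62%). The joint change, both single changes and the departure were tested two-sided at a threshold of 0.05 after Benjamini-Hochberg adjustment, done over all genes for each contrast. The SE is the log2 fold change divided by the root of F, and intervals are 95% per gene, unadjusted. A gene with no count could lie at up to 0.102 to 0.132 CPM (3 counts of the total), for counting error only. The procedure was run on simulated counts with known changes set only in the Western diet postpartum group. Those counts used the means, spreads and library sizes fitted here. They do not show how single libraries that stand apart affect the calls. Alternatives were DESeq2 1.42.0, limma-voom 3.58.1, DESeq2's size factors, no filter, a filter of 1 CPM in 3 libraries, a fit of only the libraries compared, library sizes that leave out mitochondrial genes, the robust option, and libraries left out.

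The 34 gene lists and the members were chosen with earlier results of these data known. Named are the 12 higher and 12 lower genes of smallest p among calls without overlap (at least 1 CPM in the higher group, no predicted name), up to 4 called members per list, 3 genes per sign for the departure, and 22 followed genes of stress, matrix and metabolism; further members are given as examples of their list. 1 gene is not reported here and not drawn; it stayed in all tests, list counts and medians. Promoter sequences and motif shares are from RefSeq, GRCm38.p6.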

Additional observations from a re-analysis of the deposited data

How the results depend on the processing

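The direction of the joint change held for every named gene that was called, under every alternative run. This was largely fixed in advance, since called genes were chosen by their p in these libraries and nearly all did not overlap. Leaving out a library outside the joint comparison changes it only through the shared spread, scaling and filter. Over named genes and alternatives, 1479 values of the joint change stayed on their side of the threshold, 227 lost the call and 16 gained one. Without the filter on low counts, 1315 genes passed in the joint change, 454 with diet alone, 744 with pregnancy alone and 506 in the departure, and with DESeq2 779, 95, 184 and 43. The cause was not tested. With only the libraries compared in the fit, 136, 0 and 6 passed for the joint change, diet and pregnancy. The filter of 1 CPM left 5 calls with diet alone, and the robust option gave 1 departure. With replicate 3 of control diet postpartum and replicate 1 of control diet nonpregnant both left out, 15 passed with diet, 74 with pregnancy and 1 in the departure. Leaving out 1 library gave 87 to 764 calls in the joint change, 0 to 18 with diet alone, 0 to 205 with pregnancy alone and 0 to 53 in the departure, the last without Western diet postpartum replicate 2. No paired analysis was possible because each title carries a number of its own and the groups share none. List medians of the joint change moved by more than the spread between libraries in 24 of 714 values. With 3 libraries a group, a departure under about 0.36 lies within the median reach of a gene's 95% interval.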

Other observations

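Some lists with few or no calls in the joint change had sums of single changes well above it. Interferon-stimulated genes, which limit virus growth, had no call among 38, with a median joint change of 0.17 beside a sum of 0.67. Their departures were negative in 37 of 38 genes, 12 with an unadjusted p under 0.05 where 3.86% of all genes were, and the median was -0.49. That median was -0.32 without Western diet nonpregnant replicate 1, where these genes summed to 885 CPM against 598 and 580 in its replicates, and -0.77 when replicate 3 of control diet postpartum and replicate 1 of the nonpregnant controls were both dropped. The median joint change was -0.01 without Western diet postpartum replicate 2 and 0.32 without control diet nonpregnant replicate 1. Of 44 cell cycle genes only Cenpf, a kinetochore protein, passed, falling from 43.4, 61.0 and 50.6 to 26.2, 22.9 and 24.2 CPM without overlap (log2 fold change -1.08). The other 43 held 37 positive values, and the list's median was 0.36 beside a sum of 1.07. Leaving out control diet nonpregnant replicate 1 gave 0.70, and replicate 3 gave 0.23. Their departures were negative in 42 of 44 genes.

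Genes of the respiratory chain moved little at the transcript level. None of 48 nuclear subunits of the respiratory chain passed, 44 were positive and the median was 0.07, and none of 13 mitochondrially encoded genes passed (median 0.10). None of 24 heat shock genes (median -0.01), 30 immediate early genes (0.04) or 32 genes of sterol and fatty acid synthesis (-0.12) passed. Of 33 cytokine and acute inflammation genes 2 rose (6.06%, where 2.62% of all genes passed), and the list median was 0.31 against a sum of 0.04. Icam1, which binds leukocytes, rose by 0.54 and Osmr, the oncostatin M receptor, by 0.61. Of 38 ribosome biogenesis genes 2 rose (5.26%). Nhp2, of the particles that modify ribosomal RNA, rose by 0.40 with a sum of 0.40. Rrp12, a ribosome assembly factor, rose by 0.68 with a sum of 0.02. Neither passed without Western diet postpartum replicate 1 or 3 or control diet nonpregnant replicate 2, or in the fit of 6 libraries. Rrp12 also lost its call with the robust option and without control diet nonpregnant replicate 3. The same held without both replicate 1 of that group and control diet postpartum replicate 3. Of 30 genes of FOXO, glucocorticoid and atrophy signalling 2 rose and 1 fell (10%). Foxo3 fell by 0.38 on the log2 scale. Deptor, an inhibitor of mTOR, and Gabarapl1, of autophagy, rose by 0.30 and 0.40 against sums of -0.10 and -0.07.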
